A study of Mus musculus with 8 samples.

Results

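Potassium channel genes were examined in unsorted cell suspensions of the mammary gland, to ask which channels the gland expresses and whether an early pregnancy leaves their expression changed. The genes were chosen by their name, as the probe sets whose only annotated gene symbol begins with Kcn, with the probe set of the highest mean taken for each gene. They were 92 of the 19935 gene symbols on the array, measured by 95 probe sets. By their symbols they comprised 15 inward rectifiers (Kcnj), 14 2-pore domain channels (Kcnk), 35 voltage-gated pore-forming genes, 8 calcium- or sodium-activated channels, 17 accessory subunits and 3 noncoding transcripts named after channel genes. Channel genes outside this annotation were not analysed here.

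The data were 8 Affymetrix Mouse Gene ST arrays, 4 from parous and 4 from virgin FVB/NHanHsd mice, each hybridized with RNA from the fourth mammary glands of 5 pooled mice. Parous mice, first mated at 42 days, had carried a normal pregnancy, and the labels give them 21 days of lactation and 28 days of involution, whereas the methods give a longer time between weaning and cell harvest as the general rule, so that the sources differ on the time for these arrays. Virgin control mice were matched to them in age, and neither a transgene nor an agent is given for either group. The stage of the estrous cycle is not given for the pools, and the pooling of mice was the stated control for it. Lymph nodes were removed, adipocytes and red blood cells were depleted and fibroblasts were reduced by attachment, but the cells were not sorted, so that 1 value averages all remaining cell types and, in such bulk RNA, fewer cells of a type and less RNA per cell cannot be told apart.

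Potassium channels let potassium leave or enter the cell down its gradient and so set the membrane voltage. In secretory epithelia, channels of the apical and basolateral membranes recycle the potassium that the sodium pump takes up and maintain the driving force for chloride secretion, and milk itself is rich in potassium and poor in sodium. Inward rectifiers pass current more easily into than out of the cell, 2-pore domain channels carry background leak current, voltage-gated channels open on depolarization, calcium- and sodium-activated channels open when these ions rise inside the cell, and accessory subunits change the gating or traffic of the pore.

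The values are log2 RMA values as deposited. A gene was counted as expressed above the array median where its value exceeded the median of all probe sets of the same array, which lay between 6.29 and 6.43, on each of the 8 arrays. This median is no detection limit, and the brightness of a probe set also depends on its probes, so that levels are not ranked between genes. Parous and virgin arrays were compared in limma over all 34760 probe sets, 2-sided, and a gene passed if its linear fold change exceeded 1.5, its Benjamini-Hochberg adjusted p lay under 0.05 and its mean log2 value exceeded 2. Arrays correlated with each other at 0.976 or above. Virgin replicates 2 and 4 stood apart from the other 6 arrays in the proliferation markers, whose score (the mean of its genes after subtracting from each its own average on all 8 arrays) reached 1.03 and 1.48 there and -0.77 to -0.19 elsewhere.

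Kcnj15, an inward rectifier of transporting epithelia, rose in parous mice, and Kcnip3, a calcium-binding protein that associates with voltage-gated channels and is also known as a transcriptional repressor, fell. These were the 2 of 92 genes that passed the criteria (2.17%), whereas 0.397% of all probe sets passed, 0.239% as higher and 0.158% as lower. The other 90 genes did not pass. The genes were chosen with earlier results of these data known, so these shares are no independent test of an excess. With the replicate number as a block, 1 of the 92 genes (Kcnj15) and 49 in place of 138 probe sets passed. At an unadjusted p under 0.05 in limma, 13 genes were higher (14.1%, against 5.26% of all probe sets) and 5 were lower (5.43%, against 6.14%). With arrays centred on their medians this split was 9 higher and 6 lower. The 4 parous values all lay above the 4 virgin values for 8 genes (8.7%, against 3.54% of all probe sets) and all below them for 4 genes (4.35%, against 4.06%). Without virgin replicate 1 the groups of 21 genes in place of 12 did not overlap, and without virgin replicates 2 and 4 together those of 23, where fewer arrays leave less room for overlap.

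The median log2 fold change, parous minus virgin, was 0.07 over the 92 genes, with 58 of them above 0, and 0.002 over all 19935 genes, with 50.7% above 0. This background differs with signal, since 44.0% of all genes above the array median on all 8 arrays were above 0 (median -0.027). Of the 26 potassium channel genes above that median on all 8 arrays 16 were above 0, and of the 55 below it 34 were. For 64 of the 92 genes the log2 fold change was smaller than 0.2 in either direction, and for 7 it exceeded the fold change criterion. These 7 were Kcnj15, Kcnt2, Kcne4 and Kcnj13 with higher values in parous mice and Kcnip3, Kcnh1 and Kcnk16 with lower ones. The medians of the families ranged from -0.07 in the 3 noncoding transcripts to 0.12 in the calcium- or sodium-activated channels.

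**Figure D1:**
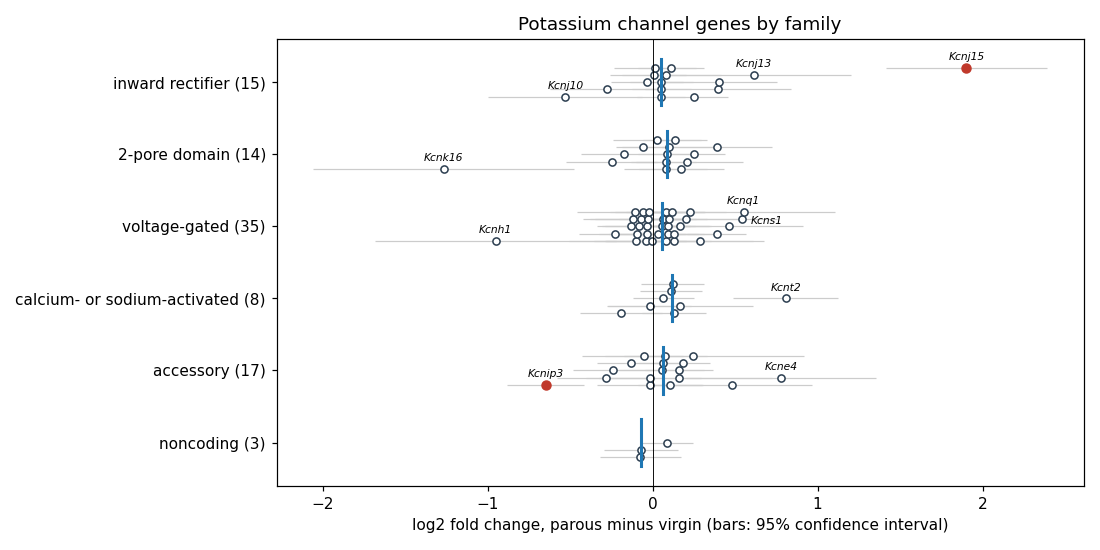
Log2 fold changes (parous minus virgin, x axis) of the 92 potassium channel genes by family (y axis, with the number of genes), each circle 1 gene with its 95% confidence interval from limma. Filled red circles mark Kcnj15 and Kcnip3, the genes that passed the criteria, and blue lines mark the family medians, which lie between -0.07 and 0.12.

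Above the array median on all 8 arrays were 26 of the 92 genes (28.3%), against 56.2% of all genes on the array. Against the higher median of the probe sets that name 1 gene the count was 15. The 26 comprised 2 inward rectifiers, 5 2-pore domain channels, 12 voltage-gated genes, 2 calcium-activated channels, 4 accessory subunits and 1 noncoding transcript. A further 55 genes lay below the median on all 8 arrays, and 11 lay above it on some arrays only. Just inside the threshold lay Kcnk15, with values of 6.50 to 6.84, and just outside it Kcnmb3, with values of 6.25 to 6.73, which was below the median on virgin replicate 3 only.

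Genes were named for a high signal without ranking their expression. The probe sets with the highest means belonged to Kcnk5, an acid-sensitive 2-pore channel known for volume regulation in epithelia, with a mean of 11.23 over the 8 arrays, Kcnk1, a 2-pore channel with weak inward rectification, with 10.73, and Kcnn4, the intermediate-conductance calcium-activated channel of secretory epithelia and lymphocytes, with 10.21. The others of the first 12 were Kcnh1 with 9.02, Kcnj8 with 8.93, Kcnk6 with 8.83, Kcnip3 with 8.54, Kcnmb1 with 8.28, Kcnq1 with 8.24, Kcnk3 with 8.16, Kcna3 with 7.91 and Kcnab2 with 7.87. Among the 26 genes above the median 9 had an unadjusted p under 0.05 in limma (34.6%, against 18.4% of all genes above it on all 8 arrays), and among the 55 below it 4 did (7.27%, against 4.42% of all genes below it).

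The genes whose values crossed the array median between arrays were Kcnj15, Kcnj13, Kcnj10, Kcnj11, Kcnk16, Kcnk12, Kcnk13, Kcna1, Kcnab1, Kcne3 and Kcnmb3. Of these, 4 lay above the median on all parous arrays but not on all virgin arrays, namely Kcnj15, Kcnj13, Kcna1 and Kcnmb3, and 0 lay above it on all virgin but not on all parous arrays. Kcnk16 was the reverse in part, below the median on all 4 parous arrays and above it on 3 of the 4 virgin arrays. Kcnj13, Kcna1 and Kcnmb3 also lay above the median on 3 of the 4 virgin arrays, and their groups overlapped. The array below it was virgin replicate 4 for Kcnj13 and Kcna1 and virgin replicate 3 for Kcnmb3, whose group means differed by 0.05 log2 units. The share of all genes with this pattern is not given, so the counts of 4 and 0 do not show a gain of channels.

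**Figure D2:**
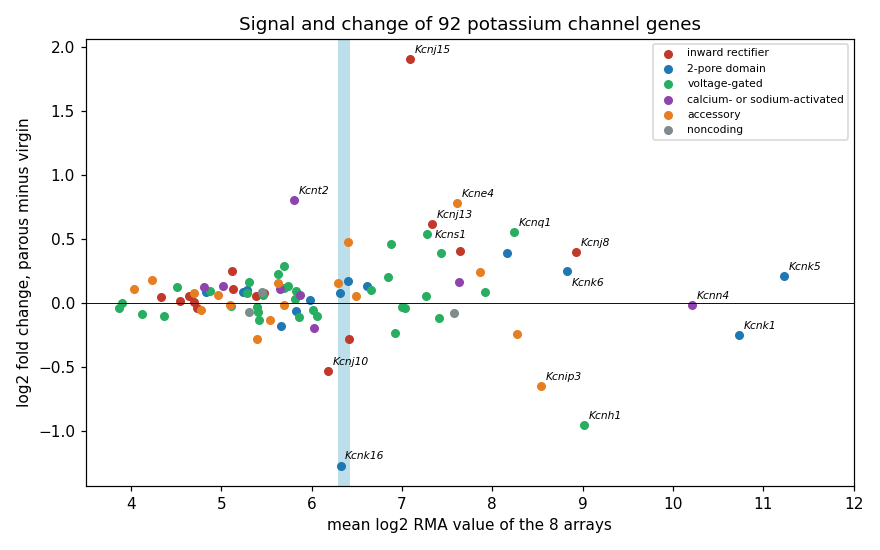
Mean log2 RMA value over the 8 arrays (x axis) and log2 fold change, parous minus virgin (y axis), of the 92 potassium channel genes, coloured by family, with the range of the array medians as a blue band. Kcnj15 has the largest fold change at a mean of 7.09, whereas Kcnk5, Kcnk1 and Kcnn4 have means over 10 and fold changes near 0.

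The inward rectifier Kcnj15 had log2 values of 8.30, 7.83, 8.17 and 7.86 in parous replicates 1 to 4 and of 6.54, 6.10, 6.36 and 5.55 in virgin replicates 1 to 4. All parous values lay above all virgin values, and while every parous value exceeded the median of its array, 2 of the 4 virgin values did. The means were 8.04 ± 0.23 in parous and 6.14 ± 0.43 in virgin mice (SD, n = 4 each). The log2 fold change was 1.90 (standard error 0.21, 95% confidence interval 1.41 to 2.39), which is 3.74 on the linear scale, at an adjusted p of 0.010 in limma. The exact 2-sided permutation test gave p = 0.029, the smallest that 4 arrays against 4 allow. Leaving out 1 array at a time, the log2 fold change ranged from 1.71 to 2.04 and Kcnj15 passed in 7 of 8 fits, the exception being the fit without parous replicate 3 (1.86, adjusted p = 0.056). Without virgin replicates 2 and 4 together it was 1.59 with an adjusted p of 0.027. With unmoderated variances, by which 11 probe sets passed over the whole array, Kcnj15 did not pass (adjusted p = 0.101).

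Kcnj15 is 1 of 15 inward rectifiers on the array, and none of the other 14 passed. The median log2 fold change of the family was 0.05, with 12 genes above 0. In the RefSeq annotation of the mouse genome the protein-coding gene next to Kcnj15 on chromosome 16 is Kcnj6, which encodes a G protein-gated channel. Kcnj6 lay at 4.31 to 4.44 in parous and 4.30 to 4.33 in virgin mice, below the array median throughout, with a log2 fold change of 0.05.

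The inward rectifiers above the median on all arrays were Kcnj2, a strong rectifier that sets the resting voltage of muscle, and Kcnj8, the pore of the vascular ATP-sensitive channel. Kcnj2 had values of 7.81, 7.96, 8.06 and 7.54 in parous and 7.45, 7.36, 7.77 and 7.18 in virgin mice, and the groups overlapped. Its log2 fold change was 0.40 (adjusted p = 0.366 in limma), and 0.23 without virgin replicates 2 and 4. Kcnj8 had 9.06, 9.21, 9.28 and 8.95 in parous and 9.13, 8.54, 9.00 and 8.24 in virgin mice, with virgin replicates 2 and 4 below the other 6 arrays. Its log2 fold change was also 0.40 (adjusted p = 0.494 in limma), but 0.23 without virgin replicate 4 and 0.059 without virgin replicates 2 and 4.

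Kcnj13, a weak rectifier of transporting epithelia, had values of 7.84, 7.56, 7.42 and 7.74 in parous and 7.57, 7.38, 6.85 and 6.30 in virgin mice. The groups overlapped, with virgin replicates 3 and 4 the lowest, and the log2 fold change was 0.61 (standard error 0.26, adjusted p = 0.418 in limma). Without virgin replicate 4 it was 0.37, under the fold change criterion. Kcnj10, which buffers potassium in glia and pairs with other rectifiers in kidney tubules, had 5.46, 5.87, 6.06 and 6.28 in parous and 6.27, 6.71, 6.11 and 6.72 in virgin mice. Its log2 fold change was -0.53 (adjusted p = 0.374 in limma), with the highest values in virgin replicates 2 and 4, without which it was -0.27. Kcnj11, the pore of the ATP-sensitive channel of beta cells, came to -0.28 (adjusted p = 0.544), and to -0.15 without parous replicate 1.

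The other 9 inward rectifiers, Kcnj1, Kcnj3, Kcnj4, Kcnj5, Kcnj6, Kcnj9, Kcnj12, Kcnj14 and Kcnj16, were below the array median on all 8 arrays, with means of 4.33 to 5.47 and log2 fold changes of -0.04 to 0.25. The highest of these fold changes belonged to Kcnj12, a strong rectifier of muscle, at 0.25 (adjusted p = 0.352 in limma). Kcnj16, next to Kcnj2 on chromosome 11, had a log2 fold change of 0.05, and Kcnj9, next to Kcnj10 on chromosome 1, had 0.11.

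**Figure D3:**
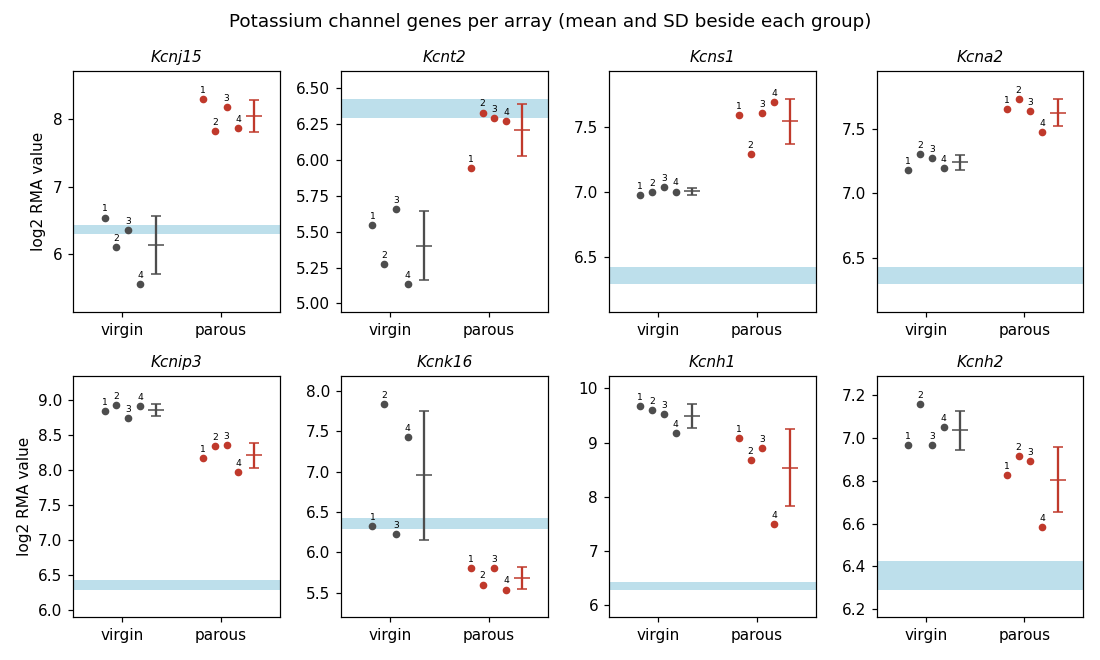
Log2 RMA values (y axis, a scale of its own in each panel) of 8 potassium channel genes in virgin and parous mice (x axis), each point 1 array with its replicate number, the bar beside it the mean and SD, and the blue band the range of the array medians. In all 8 genes the groups do not overlap, with Kcnj15, Kcnt2, Kcns1 and Kcna2 higher and Kcnip3, Kcnk16, Kcnh1 and Kcnh2 lower in parous mice.

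Of the 17 accessory subunits, Kcnip3 fell and the other 16 did not pass. Kcnip3 had values of 8.18, 8.35, 8.36 and 7.98 in parous and 8.85, 8.94, 8.75 and 8.92 in virgin mice, above the array median on all 8 arrays. All parous values lay below all virgin values. The means were 8.21 ± 0.18 and 8.86 ± 0.09 (SD, n = 4 each), and the log2 fold change was -0.65 (standard error 0.10, 95% confidence interval -0.88 to -0.42) with an adjusted p of 0.043 in limma, a level 1.57-fold higher in virgin mice. This call was lost whichever of the 8 arrays was left out, with adjusted p-values of 0.057 to 0.169 and log2 fold changes of -0.70 to -0.57, and with the replicate number as a block (adjusted p = 0.144). The related Kcnip1, Kcnip2 and Kcnip4 were below the array median on all arrays, with log2 fold changes of 0.18, 0.07 and 0.11.

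Kcne4, a single-span subunit that inhibits Kcnq1 and other channels, had values of 7.87, 8.02, 8.07 and 8.03 in parous and 7.71, 7.16, 7.58 and 6.43 in virgin mice. The groups did not overlap, but the virgin values spread over more than 1 log2 unit, and the log2 fold change of 0.78 (standard error 0.25) had an adjusted p of 0.295 in limma. Without virgin replicate 4 it was 0.51, and without virgin replicates 2 and 4 it was 0.35. Kcnq1, a channel of epithelia and heart, had 8.55, 8.44, 8.62 and 8.47 in parous and 8.42, 7.71, 8.43 and 7.31 in virgin mice. Here the groups were separated by the narrow step from 8.43 to 8.44, the low values were those of virgin replicates 2 and 4, and the log2 fold change was 0.55 (adjusted p = 0.439 in limma). It was 0.33 without virgin replicate 4 and 0.093 without virgin replicates 2 and 4. The other Kcne genes were Kcne3, with 0.16, and Kcne1, Kcne2 and Kcne1l, below the array median on all arrays.

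Kcnab2, a cytoplasmic beta subunit of shaker-type channels, had values of 8.39, 7.57, 7.82 and 8.17 in parous and 7.74, 7.41, 8.57 and 7.27 in virgin mice, with a log2 fold change of 0.24 (adjusted p = 0.828 in limma) that ranged from 0.084 to 0.52 when 1 array was left out. Kcnmb1, the beta subunit of the large-conductance calcium-activated channel in smooth muscle, had 8.08, 8.23, 8.31 and 8.00 in parous and 8.22, 8.37, 8.60 and 8.40 in virgin mice, overlapping groups with a log2 fold change of -0.24 (adjusted p = 0.438). The pore of that channel, Kcnma1, lay below the array median on all arrays on each of its 2 probe sets, with log2 fold changes of -0.19 and -0.09.

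Among the 14 2-pore domain channels 0 passed in limma or with unmoderated variances. At an unadjusted p under 0.05 in limma 2 were higher and 1 was lower (against 5.26% and 6.14% of all probe sets). The family's median log2 fold change was 0.09. Kcnk16, an alkaline-activated channel known from pancreatic beta cells, had values of 5.80, 5.60, 5.80 and 5.54 in parous and 6.33, 7.84, 6.23 and 7.42 in virgin mice. All parous values lay below all virgin values, and virgin replicates 2 and 4, the arrays with the highest proliferation markers, lay more than 1 log2 unit above the other virgin arrays. The log2 fold change was -1.27 (standard error 0.35, 95% confidence interval -2.06 to -0.48), with an adjusted p of 0.216 in limma. Without virgin replicates 2 and 4 it was -0.59 (adjusted p = 0.156). Next to it on chromosome 14 lies Kcnk5, which had 11.41, 11.37, 11.20 and 11.36 in parous and 11.45, 11.03, 11.27 and 10.74 in virgin mice and a log2 fold change of 0.21 (adjusted p = 0.663), which was 0.08 without virgin replicate 4 and 0.32 without virgin replicate 1.

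Kcnk6, a weakly rectifying 2-pore channel, had values of 8.83, 9.00, 8.95 and 9.03 in parous and 8.80, 8.75, 8.69 and 8.57 in virgin mice. The groups did not overlap and the log2 fold change was 0.25 (standard error 0.08, adjusted p = 0.295 in limma). Kcnk1, its relative, had 10.64, 10.65, 10.50 and 10.61 in parous and 10.64, 11.13, 10.66 and 10.97 in virgin mice, with the highest values in virgin replicates 2 and 4 and a log2 fold change of -0.25 (adjusted p = 0.487), which was -0.16 without virgin replicate 2 and -0.049 without both. Kcnk3, an acid-sensitive leak channel, had parous values of 8.13 to 8.70 and virgin values of 7.72 to 8.17, a difference of 0.39 (adjusted p = 0.362) that was 0.22 without virgin replicates 2 and 4.

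Among the 35 voltage-gated genes 0 passed in either direction, and 19 had higher and 16 had lower means in parous mice. At an unadjusted p under 0.05 in limma 4 were higher and 2 were lower (against 5.26% and 6.14% of all probe sets). Kcns1, which forms no channel by itself but modifies partner subunits, had values of 7.59, 7.30, 7.61 and 7.69 in parous and 6.98, 7.01, 7.04 and 7.01 in virgin mice. The virgin values lay within 0.1 log2 unit and all parous values above them. The log2 fold change was 0.54 (standard error 0.09) with an adjusted p of 0.070 in limma, and the fold change of 1.45 was under the criterion of 1.5. Its adjusted p in limma was 0.030 among probe sets above the array median on all 4 parous or all 4 virgin arrays, a filter that uses the groups. It was 0.042 where only those that name 1 gene were tested and 0.041 without parous replicate 2. Of the 8 fits that left out 1 array, 1 had an adjusted p under 0.05, and the highest was 0.223. The adjusted p was 0.152 with the replicate block, 0.275 without virgin replicates 2 and 4 and 0.152 with unmoderated variances.

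Kcna2, a shaker-type channel of axons, had values of 7.66, 7.74, 7.64 and 7.48 in parous and 7.19, 7.31, 7.28 and 7.20 in virgin mice, again without overlap. Its log2 fold change was 0.39 (standard error 0.08, adjusted p = 0.105 in limma), and its second probe set, with a mean of 5.73, had 0.19 (adjusted p = 0.524). The adjacent genes on chromosome 3 were Kcna3, at 0.08, and Kcna10, at -0.07. Kcna3, the shaker-type channel of T lymphocytes, had 8.32, 7.73, 7.64 and 8.13 in parous and 7.84, 7.58, 8.59 and 7.48 in virgin mice, with the highest value in virgin replicate 3. On chromosome 6, the neighbouring shaker-type genes Kcna5, Kcna1 and Kcna6 had log2 fold changes of 0.29, 0.46 and 0.22 with adjusted p-values of 0.488, 0.424 and 0.427. Kcna5 and Kcna6 lay below the array median on all arrays. The groups of Kcna1 overlapped, and its lowest value was 6.06 in virgin replicate 4, against 6.68 to 6.93 in the other virgin arrays.

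Kcnh1, an ether-a-go-go channel, had values of 9.08, 8.68, 8.90 and 7.50 in parous and 9.67, 9.59, 9.53 and 9.17 in virgin mice. All parous values lay below all virgin values, but parous replicate 4 was more than 1 log2 unit below the other parous arrays. The log2 fold change was -0.95 (standard error 0.32, adjusted p = 0.310 in limma), and without parous replicate 4 it was -0.60. Kcnh2, the related channel of cardiac repolarization, had 6.83, 6.92, 6.89 and 6.58 in parous and 6.97, 7.16, 6.97 and 7.05 in virgin mice, without overlap and with a log2 fold change of -0.23 (adjusted p = 0.407). The other ether-a-go-go family genes Kcnh3, Kcnh4, Kcnh5, Kcnh7 and Kcnh8 had log2 fold changes of -0.08 to 0.13.

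Of the 8 calcium- or sodium-activated channels 0 passed in limma or with unmoderated variances. At an unadjusted p under 0.05 in limma 1, Kcnt2, was higher (against 5.26% of all probe sets). Kcnt2, a sodium-activated channel, had values of 5.94, 6.33, 6.29 and 6.27 in parous and 5.54, 5.28, 5.66 and 5.13 in virgin mice. All parous values lay above all virgin values although each was below the median of its array. The log2 fold change was 0.81 (standard error 0.14, 95% confidence interval 0.49 to 1.12), or 1.75 on the linear scale, at an adjusted p of 0.067 in limma. It passed with array weights (adjusted p = 0.043), where only probe sets that name 1 gene were tested (0.039) and without virgin replicate 3 (0.048). Of the 8 fits that left out 1 array, 1 had an adjusted p under 0.05, and the highest was 0.224. Kcnt2 did not pass with the replicate block (0.171), without virgin replicates 2 and 4 (0.229) or with unmoderated variances (0.193). Its relative Kcnt1 had a log2 fold change of 0.11.

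Kcnn4 had values of 10.41, 10.24, 10.06 and 10.11 in parous and 10.15, 10.45, 10.15 and 10.14 in virgin mice, and its log2 fold change was -0.02 with a 95% confidence interval of -0.27 to 0.23. Kcnn3, a small-conductance channel, had values of 7.47 to 7.87 in parous and 7.22 to 8.13 in virgin mice and a difference of 0.16 (adjusted p = 0.822 in limma). The noncoding transcript Kcnd3os was above the array median on all arrays, at 7.39 to 7.83, whereas Kcnd3, after which it is named, was below it on all arrays. Their log2 fold changes were -0.07 and 0.13.

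**Figure D4:**
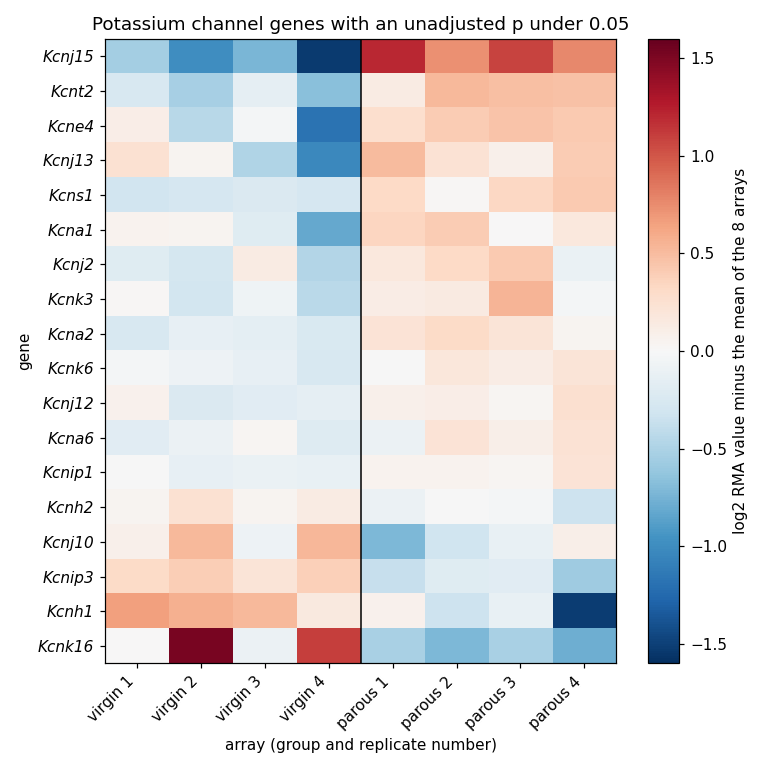
Log2 RMA values of the 18 potassium channel genes with an unadjusted p under 0.05 in limma, each minus its mean over the 8 arrays (colour), with genes in rows ordered by fold change and arrays in columns, virgin left and parous right of the line. The 13 upper genes are higher and the 5 lower genes are lower in parous mice, and Kcnk16 is highest in virgin replicates 2 and 4.

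Genes that work with potassium channels were described from 4 lists written by hand, of which 58 of 66 genes were measured. Of these, 0 passed in limma and 0 with unmoderated variances, whereas 10 were higher (17.2%, against 5.26% of all probe sets) and 4 lower (6.9%, against 6.14%) by an unadjusted p under 0.05 in limma. In either direction, 18.4% of genes above the array median on all 8 arrays and 4.42% of those below it had such a p. In the 4 lists, 11 of 19, 7 of 14, 10 of 12 and 9 of 13 genes lay above that median on all 8 arrays. The shares are therefore not compared at equal signal. Among 19 potassium pumps and cotransporters the median log2 fold change was 0.19. Atp12a, a proton-potassium pump subunit, had values of 5.76 to 6.03 in parous and 5.44 to 5.64 in virgin mice (log2 fold change 0.39, adjusted p = 0.154), and Fxyd1, a regulator of the sodium pump, had 9.18 to 9.71 and 8.63 to 9.09 (0.65, adjusted p = 0.137). Atp1b1, a beta subunit of the sodium pump, had 10.29 to 10.66 in parous and 10.72 to 11.19 in virgin mice, with a log2 fold change of -0.50 (adjusted p = 0.174). Virgin replicates 2 and 4 had the lowest values of Fxyd1 and the highest of Atp1b1. Slc12a2, the basolateral cotransporter that loads chloride and potassium into secretory cells, had 10.66 to 10.91 in parous and 10.91 to 12.03 in virgin mice, with -0.69 (adjusted p = 0.289).

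Among 14 other channel subunits and relatives the median log2 fold change was 0.04. Abcc8, the receptor subunit that joins Kcnj11 in beta cells, had values of 6.88, 6.87, 6.99 and 6.77 in parous and 8.29, 7.93, 8.54 and 6.94 in virgin mice, with virgin replicate 4 within the parous range and a log2 fold change of -1.05 (adjusted p = 0.241 in limma). Abcc9, the subunit that joins Kcnj8 in vessels, had 9.23 to 9.61 in parous and 8.20 to 9.24 in virgin mice, with 0.57 (adjusted p = 0.388) and the lowest values in virgin replicates 2 and 4. Hcn4, a cation channel opened by hyperpolarization, had 8.36 to 8.81 and 7.24 to 8.40 (0.69, adjusted p = 0.305).

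The label of the samples, mammary epithelial cells, was checked against markers. All 11 pan-luminal and all 14 basal and myoepithelial markers measured lay above the array median on every array. So did all 10 endothelial and all 9 fibroblast markers. For T and NK cells it was 10 of 13 markers and for macrophages and dendritic cells 10 of 12. For B and plasma cells it was 8 of 12, for pericytes 7 of 8, for neural cells 3 of 7 and for adipocytes 1 of 7. Of all genes on the array 56.2% lay above the median on every array. Counts near or below that share do not show that a cell type was present, since the median is no detection limit. The cells were not sorted, so the channel values average all remaining cell types.

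Several marker lists moved between the groups beside the channel genes. Of the 10 luminal progenitor markers, 7 had no overlap between the groups, all higher (against 3.54% of all probe sets), although 0 passed. Elf5, Ltf and Csn3 are among these 7 and also among the milk and secretory markers, so that these lists are not independent. The score of the 10 luminal progenitor markers was 0.14 to 0.24 in parous and -0.55 to 0.05 in virgin mice. That of the 19 milk and secretory markers was 0.18 to 0.47 in parous and -0.77 to -0.02 in virgin mice, with Wap and Cel passed as higher. The 9 hormone-sensing luminal markers were at -0.64 to -0.19 and 0.01 to 0.61, with Wnt4 passed as lower. The part of these cell types in the higher Kcnj15 was not tested.

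The score of the 14 basal and myoepithelial markers was -0.25 to -0.06 in parous and 0.01 to 0.27 in virgin mice, with Krt17 passed as lower. The list did not move as a whole. While 11 markers had lower means in parous mice, 3 contractile genes, Myh11, Mylk and Lmod1, had higher ones, with log2 fold changes of 0.24, 0.20 and 0.25. Acta2 and Tagln were both at -0.10. The part of these cells in the lower Kcnip3 was not tested. The 13 T and NK cell markers were highest in virgin replicate 3 at 0.72, parous replicate 1 at 0.69 and parous replicate 4 at 0.31, the same 3 arrays that had the highest Kcna3 and Kcnab2. The 8 pericyte markers, which include Abcc9, were lowest in virgin replicates 2 and 4 at -0.34 and -0.62, as were Kcnj8 and Kcnq1. The luminal progenitor, milk, macrophage, T and NK cell and B and plasma cell scores were lowest in these same 2 arrays. The 24 proliferation markers and Kcnk16 were both highest in virgin replicates 2 and 4. Without these arrays the number of potassium channel genes at an unadjusted p under 0.05 in limma was 11 in place of 18, and only Kcnj15 passed. Fewer arrays also weaken the test, and on the whole array 100 in place of 138 probe sets passed. The part of these cells in the channel values was not tested.

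Of the remaining lists, 4 of 12 B and plasma cell markers passed as higher (Jchain, Derl3, Tnfrsf13b and Tnfrsf17), against 0.239% of all probe sets. Of the pan-luminal, macrophage, endothelial, pericyte, fibroblast, T and NK cell, adipocyte, neural, proliferation and reference markers 0 passed in limma. By an unadjusted p under 0.05 in limma, 5 of 9 fibroblast, 2 of 8 pericyte, 2 of 13 T and NK cell, 2 of 11 pan-luminal and 1 of 12 macrophage markers were higher, and 18 of 24 proliferation, 5 of 11 pan-luminal, 1 of 12 macrophage and 1 of 8 reference markers were lower. Over the whole array 5.26% of probe sets were higher and 6.14% were lower by this measure.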

How the data were processed

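Amplified RNA from pools of 5 mice was hybridized to Affymetrix Mouse Gene ST arrays, 1 pool to each array. The deposited log2 values were computed by the authors with rma() from the affy package (the methods give a release of R/Bioconductor, not a version of affy itself). This function subtracts background, brings all arrays to 1 distribution by quantiles and combines the probes of a probe set, and since 8 arrays were normalized together a shift shared by most genes is removed.

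Of 34760 probe sets, 21640 named 1 gene, 1321 several and 11799 none here. All 95 potassium channel probe sets kept their symbol through the gene identifier. Genes next to each other were taken from the RefSeq table of the mouse genome; since the files name no build, no coordinates are given. No table of proteins was used, and no sequence is printed because the arrays do not measure it.

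All probe sets were fitted in R 4.3.3 with limma 3.58.1 (lmFit, eBayes, no covariate, 2-sided) and adjusted by Benjamini-Hochberg over the 34760. The criteria were those of the study's methods. A legend of the study describes separate experiments that each included both groups. No source used here links replicate numbers to those experiments, so the number was tried as a block. Pools were counted as replicates, 4 in each group, and their number limits the precision. The fit was tested on simulated data. The genes, the 4 lists of transport partners and the 15 lists of cell type, proliferation and reference markers (231 of 254 entries measured, some genes in more than 1 list) were chosen with earlier results of these data known. Genes not measured under these names were not analysed here.

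Genes named are Kcnj15, those that passed, up to 12 of the brightest above the array median, up to 8 with the smallest p under 0.05 in each direction, those without overlap and a log2 fold change over 0.5 in size, all Kcnj genes and, in each partner list, up to 2 with the smallest p. Further genes were named after their values were seen, for counts, families or neighbours. Alternatives were a replicate block, leaving out arrays, repeated quantile normalization, centring on the median, a trend with robust estimation, array weights, unmoderated variances, filters on dim or unnamed probe sets, other probe set rules and other criteria.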

Additional observations from a re-analysis of the deposited data

Results flagged for a closer look

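In each group of 4 arrays the named genes were checked for an array far from the other 3, by the gap to the nearest array over the range of the group (Dixon's test at 95%). Of 64 groups 4 had such an array, and chance alone gives about 1 in 20. Kcnt2 in parous replicate 1 was 5.94, below the 6.27 to 6.33 of the other parous arrays and above all virgin values. Kcnj11 in parous replicate 1 was 5.90, below 6.37 to 6.43. Kcnn4 in virgin replicate 2 was 10.45, above 10.14 to 10.15. Kcnj3 in parous replicate 2 was 4.80, above 4.66 to 4.68, all well below the array median.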

How the results depend on the processing

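Of 92 genes, 2 passed as reported. With the replicate block 1 passed (Kcnj15, adjusted p = 0.025, with Kcnip3 at -0.65 and an adjusted p of 0.144), and 49 probe sets in place of 138 on the whole array. Deviations of same-numbered arrays correlated at 0.12, 0.18, -0.06 and 0.31, not every array correlated best with its own number, and whether the numbers pair the arrays by experiment was not settled. Without virgin replicates 2 and 4 together 1 passed (Kcnip3 at -0.58, adjusted p = 0.248), 11 in place of 18 genes had an unadjusted p under 0.05, and 23 in place of 12 did not overlap. Fewer arrays overlap less by construction and give a weaker test. With unmoderated variances 0 passed (Kcnj15 at 1.90, adjusted p = 0.101; Kcnip3 adjusted p = 0.133), while 14 genes had an unadjusted p under 0.05. At a fold change over 2, 1 passed, by limma's treat 0 passed, and 7 passed at an unadjusted p with the fold change criterion kept. Leaving out 1 array at a time, 0 to 2 genes passed (0 without parous replicate 3), Kcnj15 ranged from 1.71 to 2.04 and 14 to 21 genes did not overlap (21 without virgin replicate 1). Against the median over probe sets that name 1 gene 15 in place of 26 genes, and against the 75th percentile 3, lay above the threshold on all arrays. The count without overlap has no counterpart with the replicate block, which was not run for it.

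Of 576 values for the 31 other named genes, 527 kept direction and side of the threshold, 7 gained an adjusted p under 0.05 (in Kcnt2, Kcns1 or Kcna2), 11 lost it (all Kcnip3), and 31 changed sign, all in genes that had not passed. Without virgin replicates 2 and 4, Kcna3 was -0.26, Kcnab2 -0.16, Kcnj1 -0.14, Kcnj14 -0.051, Kcnj16 -0.038, Kcnk5 -0.031 and Kcnn4 0.055. Kcnj1 and Kcnj3 were -0.014 and -0.022 after repeated quantile normalization, -0.0017 and -0.0072 after centring and -0.016 and -0.0033 with array weights, which also gave -0.037 for Kcna3. Leaving out 1 array, the ranges that crossed 0 were -0.046 to 0.32 in Kcna3, -0.065 to 0.091 in Kcnj1, -0.029 to 0.17 in Kcnj14, -0.0028 to 0.094 in Kcnj16, -0.041 to 0.065 in Kcnj3, -0.11 to 0.018 in Kcnj5 and -0.087 to 0.058 in Kcnn4. The cause was not tested.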

Other observations

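Epithelial sodium and chloride channels with some other ion transporters, and kinases and other regulators of ion transport, were described from the remaining 2 of the 4 lists. None of their genes passed in limma. Among the 13 channel and transporter genes the median log2 fold change was 0.14. By an unadjusted p under 0.05 in limma 3 were higher and 1 lower (against 5.26% and 6.14% of all probe sets). Slc4a4, which carries sodium and bicarbonate, had values of 7.79, 7.91, 7.86 and 8.15 in parous and 7.52, 6.91, 7.35 and 6.79 in virgin mice, without overlap, and a log2 fold change of 0.78 (adjusted p = 0.131). Scnn1g, the gamma subunit of the epithelial sodium channel, had 8.29, 8.45, 8.72 and 8.45 in parous and 7.60, 7.19, 8.35 and 6.60 in virgin mice, with 1.04 (adjusted p = 0.277). Among 12 regulators, 9 had lower means in parous mice, and 1 was higher and 0 lower by an unadjusted p under 0.05. This was Wnk2, a kinase of the pathway, with 8.72 to 8.88 in parous and 7.39 to 8.54 in virgin mice and 0.71 (adjusted p = 0.292), and Stk39, the kinase that acts on Slc12a2, had -0.15 (adjusted p = 0.493). In Slc4a4, Scnn1g and Wnk2 alike the lowest values were those of virgin replicates 2 and 4, with 8.07 and 7.39 in Wnk2. Fits without these arrays are not given for these genes.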
